A study of Mus musculus with 14 samples.

Results

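The 33 transcripts described here are those of microglia and of antigen presentation on MHC class II: Cd68 with 3 other transcripts of lysosomes and phagocytosis, the 4 class II transcripts Cd74, H2-Aa, H2-Ab1 and H2-Eb1, the 3 chains of complement C1q, and receptors, leukocyte proteins and transcription factors of microglia. They were chosen by name, as 33 of the 18193 genes with a probe set of a single gene symbol on the array, and all 33 were measured. The values came from 14 arrays of ventral midbrain. The mice carried a deletion of transferrin receptor 1 (Tfr1, encoded by Tfrc), the receptor that takes up transferrin-bound iron, which the labels place in dopaminergic neurons (Tfr1ΔDN, labelled Tfr1-null), or were controls heterozygous for the Tfr1 allele (CTR). At 3 weeks there were 4 Tfr1-null and 3 control libraries, and at 10 weeks 3 Tfr1-null and 4 control libraries. Both genotypes were F2 mice of 129Sv and C57BL/6 on a RiboTag background, in which an epitope-tagged ribosomal protein lets messenger RNA on ribosomes be precipitated from one cell type. Neither the labels nor the series text names the Cre driver, and nothing says whether each library came from a separate animal, so p-values measure the spread between these libraries, which may be technical.

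Microglia are the resident phagocytes of the brain. They depend on Csf1r signalling, recognise neighbouring neurons through receptors such as Cx3cr1 and P2ry12, and engulf debris that ends in lysosomes, where the glycoprotein Cd68 (macrosialin) is abundant. Cd68 is widely used as a stain for phagocytic microglia and macrophages. On activation microglia can also place peptides on MHC class II, whose alpha chain H2-Aa pairs with the beta chain H2-Ab1 while Cd74, the invariant chain, occupies the groove until the peptide is loaded. The RNA was precipitated as that of dopaminergic neurons and no lysate before precipitation was analysed here, so how strongly any microglial transcript was depleted cannot be stated. In bulk RNA of this kind, fewer cells of a type and less RNA per cell cannot be told apart.

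The deposited values were log2 signals. At 3 weeks the array medians ran 6.41 to 6.47, and at 10 weeks 7.36 to 7.43, so levels were not compared between ages. Labels of 2 libraries were doubtful. The labels were checked with the targeted gene, for which the array carries control probe sets. At 3 weeks the 5′ set read 7.13, 7.73 and 6.88 in Tfr1-null libraries 2 to 4, against 9.59, 9.50 and 9.56 in the controls, and 9.67 in the library labelled Tfr1-null 3 weeks 1. At 10 weeks it read 7.79, 8.34 and 9.29 in Tfr1-null libraries, against 8.55, 10.15, 9.63 and 10.44 in controls 1 to 4. The middle set ran the other way, higher in most Tfr1-null libraries. It read 10.88, 10.70 and 10.98 in Tfr1-null libraries 2 to 4 at 3 weeks, against 8.81, 8.80 and 8.86 in the controls, and 8.82 in the library labelled Tfr1-null 3 weeks 1, whose source name calls it control. At 10 weeks the middle set read 11.39, 11.69 and 11.50 in Tfr1-null libraries, against 9.34, 9.17 and 9.86 in 3 controls, and 11.43 in the library labelled control 10 weeks 1. Differences below use the 12 libraries that remain without these 2, unless another set is named. Leaving them out because of Tfrc favours genes that track Tfrc. As a check of the labelled cell type, 8 dopaminergic neuron transcripts (Th, Slc6a3 and others) were listed. At 3 weeks they averaged 11.9 to 11.99 in Tfr1-null libraries and 12.1 to 12.12 in controls. At 10 weeks they averaged 12.49 to 12.82 against 12.84 to 13.32, so the genotypes did not overlap at either age. With 14 libraries the Tfr1-null values reached 12.07 at 3 weeks, and the control values began at 12.61 at 10 weeks.

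Cd68 had the largest difference of the 33 members at both ages, with 14 and with 12 libraries, and the sequence before its start site is shown for that reason. In RefSeq's GRCm38.p6 promoter table, which has a window of 250 bases before to 50 bases after the start for 23 of the 33 members, Cd68 lies on the minus strand at chr11:69666121-69666420. Capitals mark 2 copies of TGAGTCA, the binding letters of AP-1 factors, and 3 copies of CCAAT, on either strand.
Cd68: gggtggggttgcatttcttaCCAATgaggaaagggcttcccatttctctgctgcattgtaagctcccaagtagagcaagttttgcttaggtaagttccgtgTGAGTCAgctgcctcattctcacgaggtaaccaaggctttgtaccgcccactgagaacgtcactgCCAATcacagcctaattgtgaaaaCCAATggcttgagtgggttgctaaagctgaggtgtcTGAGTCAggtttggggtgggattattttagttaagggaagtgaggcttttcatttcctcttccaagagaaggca
TGAGTCA, searched on both strands, was present in 5.2% of the 32851 windows of the table and at least 2 copies in 0.222%, and Cd68 was the 1 member of 23 that held it. This motif was chosen after the sequence had been read, so its rarity is a description. CCAAT was present in 37.4% of windows. CACGTGAC, a core of the CLEAR element of lysosomal genes, was in 2.25% of windows and in none of the 23 members, Cd68 included. The purine-rich PU.1 core GAGGAAG was in 13.6% of windows and in 9 of the 23 members, among them Itgam, Trem2 and C1qc. Its longer form GAGGAAGT, which contains it, was in 3.2% of windows and in 2 members, C1qc and Cd53. CANNTG, the E box, was in 72.3% of windows and in 22 members.

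For the class II genes the windows of H2-Aa (minus strand, chr17:34287774-34288073) and H2-Eb1 (plus strand, chr17:34305617-34305916) are shown because both hold the Y box core CTGATTGG, in capitals, at a like distance from the start. That core contains CCAAT on the other strand.
H2-Aa: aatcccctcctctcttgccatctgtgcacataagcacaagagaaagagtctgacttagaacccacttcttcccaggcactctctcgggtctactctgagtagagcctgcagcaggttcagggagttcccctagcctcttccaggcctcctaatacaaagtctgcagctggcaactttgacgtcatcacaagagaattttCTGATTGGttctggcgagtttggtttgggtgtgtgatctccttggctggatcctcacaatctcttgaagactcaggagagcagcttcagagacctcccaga
H2-Eb1: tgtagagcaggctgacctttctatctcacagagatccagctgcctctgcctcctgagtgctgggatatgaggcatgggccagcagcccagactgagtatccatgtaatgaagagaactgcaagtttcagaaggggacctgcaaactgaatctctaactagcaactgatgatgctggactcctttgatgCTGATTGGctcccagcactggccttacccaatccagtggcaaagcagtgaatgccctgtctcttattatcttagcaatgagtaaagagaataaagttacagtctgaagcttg
The core began 51 bases before the start in H2-Aa and 62 bases before it in H2-Eb1. It was in 4.1% of all windows and in 3 of the 23 members, the third being the interferon regulatory factor gene Irf8.

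At 3 weeks Cd68 was higher in 3 of the 4 Tfr1-null libraries. Its probe set 1449164_at, the only one for the gene, read 5.49, 7.61, 7.39 and 7.42 in Tfr1-null libraries 1 to 4, against 5.67, 5.38 and 5.33 in controls 1 to 3. Tfr1-null libraries 2 to 4 lay above every control, and the library labelled Tfr1-null 3 weeks 1 lay among the controls. With 14 libraries the difference was 1.52 on the log2 scale (SE 0.74, limma adjusted p = 1.0), within the spread of the libraries. With 12 libraries it was 2.01 (SE 0.15, limma adjusted p = 7.87e-05), a 4.04-fold difference. An exact permutation test of Cd68 alone, two-sided, gave p = 0.0857 for 4 against 3 libraries, where the smallest possible is 0.0286, and p = 0.1 for 3 against 3, the smallest that design allows.

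At 10 weeks Cd68 read 10.51, 10.65 and 10.22 in Tfr1-null libraries 1 to 3, against 9.96, 6.46, 6.85 and 6.44 in controls 1 to 4. All 3 Tfr1-null libraries lay above all 4 controls, but the library labelled control 10 weeks 1 read close to the lowest of them. With 14 libraries the difference was 3.03 (SE 0.74, limma adjusted p = 0.0602), and it missed the threshold of 0.05. With 12 libraries it was 3.87 (SE 0.15, limma adjusted p = 2.72e-07), a 14.7-fold difference, and its rise ranked 7 of the 18193 genes by size. The exact permutation p, two-sided, was 0.0571 for 3 against 4 libraries and 0.1 for 3 against 3, again the smallest that design allows.

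**Figure D1:**
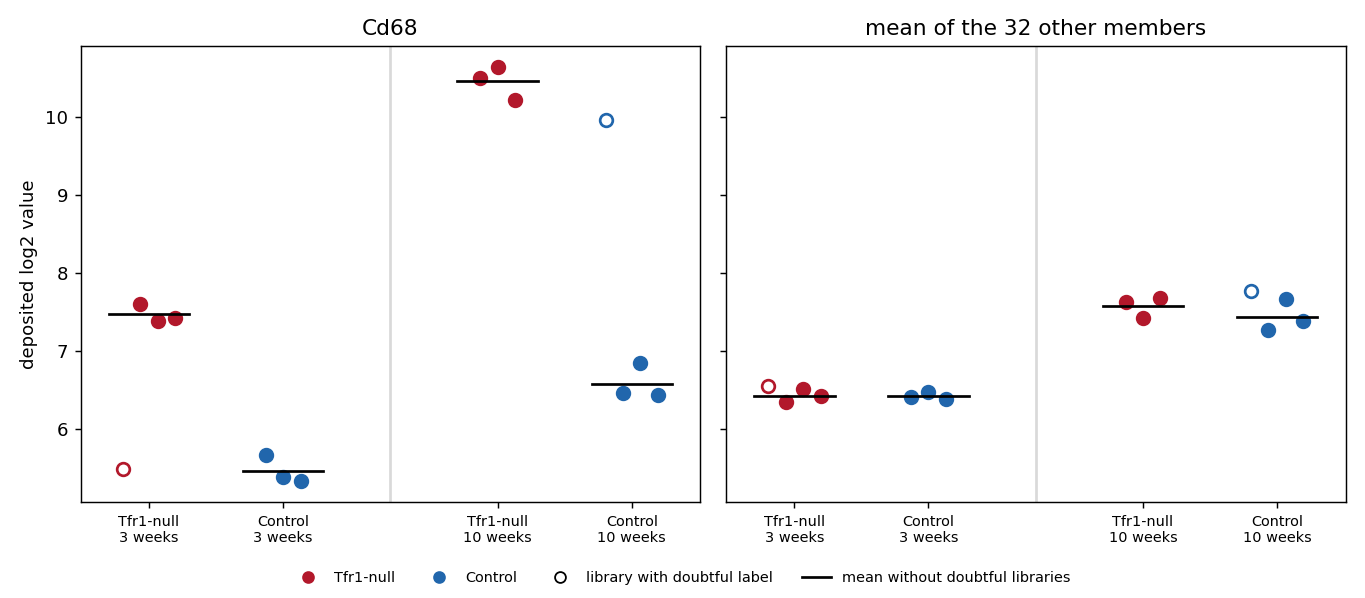
Deposited log2 values of Cd68 (left) and the mean of the 32 other members (right) in each library, by genotype and age; open circles are the 2 libraries with doubtful labels and bars are means without them. Cd68 reads 7.39 to 7.61 in Tfr1-null libraries 2 to 4 at 3 weeks against 5.33 to 5.67 in controls, while the means of the others overlap between genotypes.

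The genotype difference of Cd68 was larger at 10 weeks than at 3 weeks when 12 libraries were used. The difference of the 2 differences was 1.86 (SE 0.22, limma adjusted p = 0.00765) with 12 libraries and 1.51 (SE 1.04, limma adjusted p = 0.756) with 14. Of all genes, 0.286% passed this test with 12 libraries and 0% with 14, and Cd68 was the 1 member among them with 12. The ages differ in array median, so the size of each difference, and not the level, was compared. Age went with the scaling of the arrays, so the 2 cannot be told apart in this comparison either. Cd68 read below the array medians in controls of both ages, 5.33 to 5.67 at 3 weeks and 6.44 to 6.85 at 10 weeks with 12 libraries. Whether such signals follow transcript amounts to scale was not tested.

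The genes next to Cd68 in the RefSeq order were measured as well. Mpdu1, on one side of Cd68, differed by 0.42 (SE 0.15, limma adjusted p = 0.309) at 3 weeks and by 0.36 (SE 0.15, limma adjusted p = 0.169) at 10 weeks with 12 libraries. Eif4a1, on the other side and a translation initiation factor gene, differed by -0.18 (SE 0.19, limma adjusted p = 0.897) and 0.18 (SE 0.19, limma adjusted p = 0.606). Neither passed the test at either age.

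The other lysosomal and phagocytic members did not pass the test. Laptm5, a lysosomal membrane protein of haematopoietic cells, differed by -0.23 (SE 0.25) at 3 weeks and 0.17 (SE 0.25) at 10 weeks with 12 libraries. Mpeg1, the pore-forming perforin-2 of phagocytes, differed by -0.01 (SE 0.30) and 0.43 (SE 0.30). Lyz2, the lysozyme of macrophages, read 7.51, 7.28 and 7.63 in Tfr1-null libraries at 10 weeks, against 7.13, 7.63, 7.95 and 7.71 in controls 1 to 4. Its difference with 12 libraries was -0.29 (SE 0.12, limma adjusted p = 0.151).

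Of the 4 class II transcripts, H2-Ab1, the beta chain of I-A, was higher in Tfr1-null libraries at 3 weeks. Probe set 1450648_s_at read 6.47, 6.79, 6.93 and 6.73 in Tfr1-null libraries 1 to 4, against 6.20, 5.60 and 5.56 in controls, and no library of one genotype overlapped the other. With 14 libraries the difference was 0.94 (SE 0.19, limma adjusted p = 1.0), the second smallest p of all genes but not past the threshold. With 12 libraries it was 1.03 (SE 0.21, limma adjusted p = 0.0315), a 2.04-fold difference. The call was lost when any 1 of control libraries 2 and 3 or Tfr1-null libraries 2, 3 and 4 of that age was left out, with differences between 0.92 and 1.07 in those fits.

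The probe sets of H2-Ab1 differed in size. With 12 libraries the other 2 gave 0.13 (1425477_x_at) and 0.16 (1451721_a_at) at 3 weeks, against 1.03 for the one used. With the mean of the 3 the difference was 0.44 and its limma adjusted p was 0.165. At 10 weeks the probe set used read 7.87, 7.61 and 8.15 in Tfr1-null libraries, against 7.66, 7.43, 7.82 and 7.20 in controls. These ranges overlapped, and the difference with 12 libraries was 0.39 (SE 0.21, limma adjusted p = 0.264).

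The partners of H2-Ab1 were not called at either age. H2-Aa, the alpha chain with which it forms I-A, read 6.06, 5.93, 6.61 and 5.92 in Tfr1-null libraries at 3 weeks, against 6.06, 5.74 and 5.67 in controls. At 10 weeks H2-Aa read 7.13, 7.58 and 8.24 in Tfr1-null libraries, against 7.61, 7.88, 7.99 and 7.38 in controls. The genotypes overlapped at both ages, with differences of 0.33 (SE 0.28, limma adjusted p = 0.844) and -0.10 (SE 0.28, limma adjusted p = 0.864) for 12 libraries.

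Cd74, the invariant chain, read 6.78, 6.73, 6.71 and 6.56 in Tfr1-null libraries at 3 weeks, against 6.64, 6.52 and 6.32 in controls. At 10 weeks it read 7.39, 7.62 and 8.58 in Tfr1-null libraries, against 7.48, 7.82, 8.12 and 7.69 in controls. The ranges overlapped at both ages, and the 12-library differences were 0.17 (SE 0.25) and -0.01 (SE 0.25).

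H2-Eb1, the beta chain of I-E, read 6.09, 5.92, 6.21 and 6.19 in Tfr1-null libraries at 3 weeks, against 6.19, 6.36 and 6.10 in controls. At 10 weeks it read 7.19, 7.08 and 7.38 in Tfr1-null libraries, against 8.15, 7.23, 7.80 and 7.38 in controls. The difference there was -0.43 (SE 0.18, limma adjusted p = 0.224) with 14 libraries and -0.25 (SE 0.16, limma adjusted p = 0.336) with 12. The highest control value belonged to the library labelled control 10 weeks 1.

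Among the C1q chains, which start the classical complement cascade and are made in brain mainly by microglia, C1qa read 8.78, 7.51 and 7.60 in Tfr1-null libraries at 10 weeks. The controls read 7.78, 6.50, 7.15 and 7.49, so without control 1 the genotypes did not overlap, though 7.51 and 7.49 lay close together. The 12-library difference was 0.92 (SE 0.33, limma adjusted p = 0.0998) and did not pass the test. At 3 weeks C1qa differed by -0.32 (SE 0.33) and was not called. C1qb differed by -0.05 (SE 0.26) at 10 weeks and 0.24 (SE 0.26) at 3 weeks. Another of its 3 probe sets (1417063_at) gave 0.71 at 10 weeks with 12 libraries, at 7.53 to 8.32 in Tfr1-null libraries against 6.89 to 7.35 in controls, which did not overlap. At 3 weeks Tfr1-null library 3 read 9.92 for C1qb, against 8.81 to 8.96 in the other Tfr1-null libraries and 8.80 to 9.07 in the controls.

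The third chain, C1qc, and 3 receptors of resting microglia depended on 1 control library at 10 weeks. C1qc read 8.34, 8.40 and 8.39 in Tfr1-null libraries, against 8.43, 7.08, 8.61 and 7.70 in controls 1 to 4. The purinergic receptor gene P2ry12 read 6.95, 6.95 and 7.25 in Tfr1-null libraries, against 6.95, 5.58, 7.89 and 6.43 in controls. In both genes controls 1 and 3 lay at or above the lowest Tfr1-null value, and controls 2 and 4 lay below it.

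The fractalkine receptor gene Cx3cr1 read 7.31, 7.63 and 7.31 in Tfr1-null libraries, against 8.04, 6.54, 7.31 and 6.96 in controls. P2ry13, a second purinergic receptor gene, read 6.02, 5.88 and 6.20 in Tfr1-null libraries, against 6.55, 5.47, 6.17 and 5.60 in controls. For both, control 1 was the highest of the 7 libraries and control 2 the lowest. With 12 libraries none of these 4 genes was called: the differences were 0.58 (SE 0.29) for C1qc, 0.41 (SE 0.43) for P2ry12, 0.48 (SE 0.17) for Cx3cr1 and 0.28 (SE 0.17) for P2ry13, with limma adjusted p between 0.0951 and 0.606. Without control 3 as well, all 4 passed, with differences of 0.99, 1.04, 0.67 and 0.50 and limma adjusted p of 0.00995, 0.0224, 0.0194 and 0.0362. In that fit 1623 of all genes were called at 10 weeks. It left 2 controls at that age, and nothing in the labels sets control 3 apart. At 3 weeks the 12-library differences of the 4 genes were -0.11, -0.10, -0.03 and -0.12, and none was called.

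**Figure D2:**
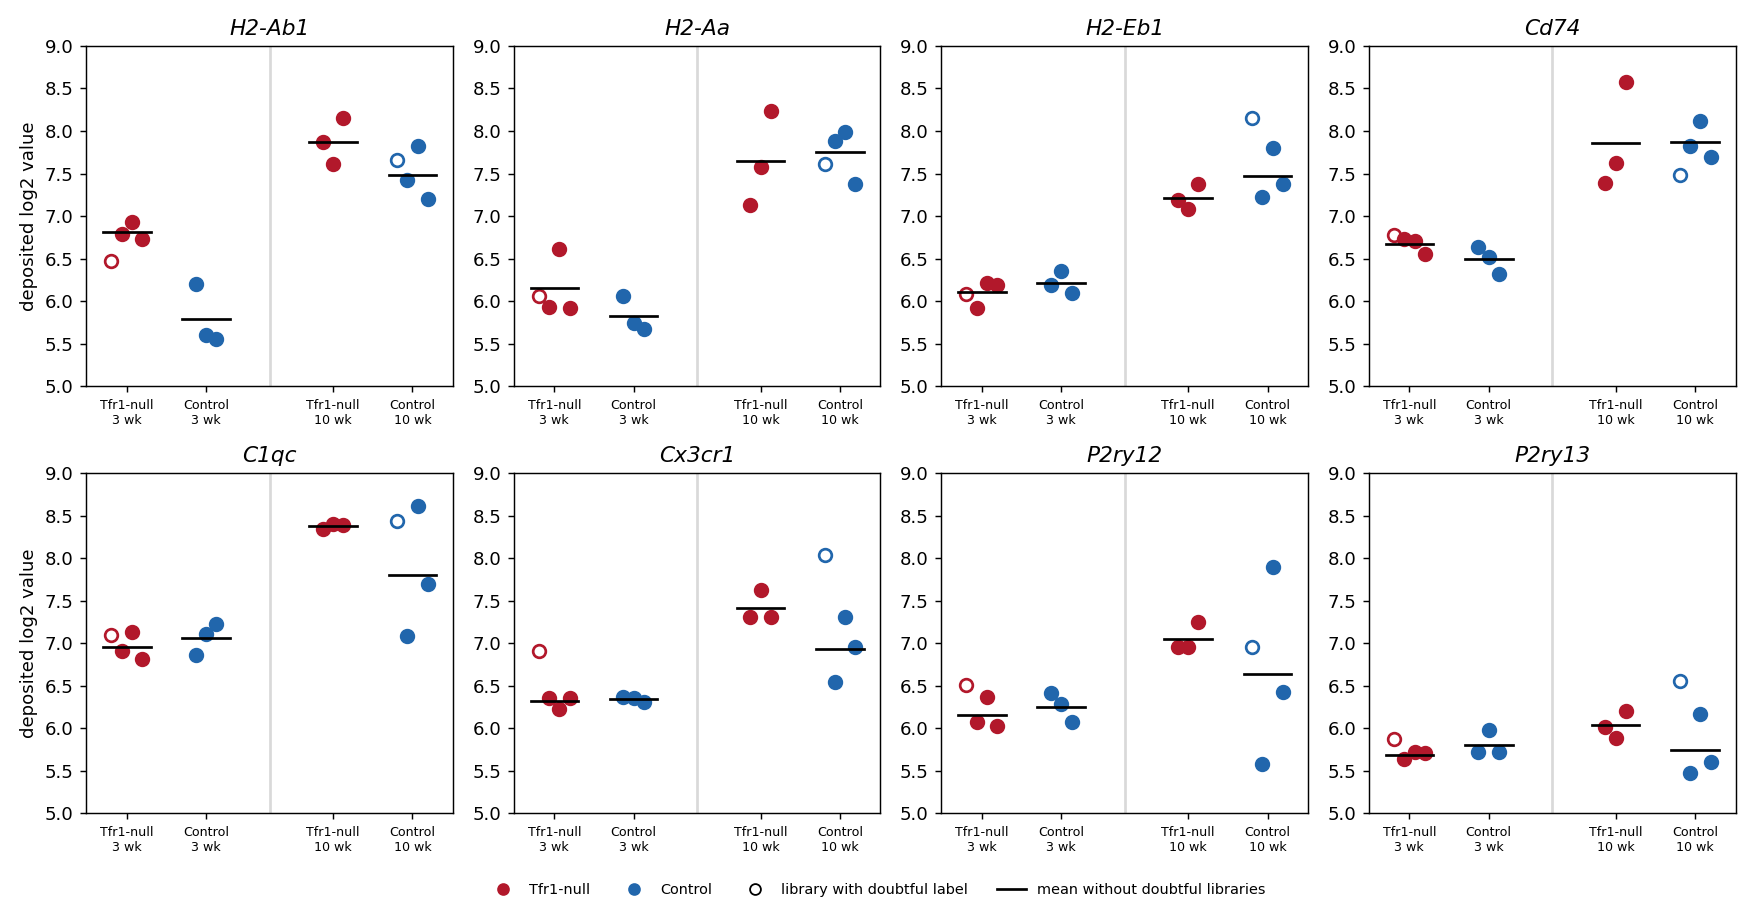
Deposited log2 values by library of the 4 class II members (top) and of 4 microglial members that depend on 1 control library (bottom), with Tfr1-null left of control at 3 and at 10 weeks; open circles are libraries with doubtful labels and bars are means without them. H2-Ab1 separates the genotypes at 3 weeks, and the 10-week controls of P2ry12 spread from 5.58 to 7.89.

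The remaining receptors of resting microglia were not called at either age, with 12 or with 14 libraries. Csf1r, the receptor for the growth factors on which microglia depend, read 12.01, 10.71 and 11.43 in Tfr1-null libraries at 10 weeks, against 12.42, 11.47, 10.89 and 10.14 in controls. Its 12-library difference was 0.55 (SE 0.37, limma adjusted p = 0.387). Of its other 2 probe sets 1 gave 0.02 at 10 weeks and the other (1423593_a_at) 0.67. The latter read 7.22 to 7.97 in Tfr1-null libraries against 6.69 to 7.12 in controls, which did not overlap. The library labelled control 10 weeks 1, left out there, read 7.22. Tmem119, a marker that separates microglia from other macrophages, differed by -0.03 (SE 0.21) at 3 weeks and 0.27 (SE 0.21) at 10 weeks. Fcrls, an Fc receptor-like gene, the sialic acid-binding Siglech and the P-selectin ligand gene Selplg differed by 0.12, -0.04 and -0.03 at 3 weeks and by 0.04, 0.17 and 0.03 at 10 weeks (SE 0.20 to 0.22). Gpr34, a G protein-coupled receptor gene of microglia, differed by -0.57 (SE 0.28, limma adjusted p = 0.54) at 3 weeks, the lowest value among the members, and 3 of its 14 values lay under the 25th percentile of their array. Of the 9 receptors of this kind 1 had a difference above 0 at 3 weeks and 8 at 10 weeks with 12 libraries, against 3 and 6 with 14 libraries, and none was called.

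Activating and inhibitory immune receptors showed small differences. Trem2, a lipid-sensing receptor of phagocytes, differed by 0.06 (SE 0.13) at 3 weeks and 0.04 (SE 0.13) at 10 weeks. Tyrobp, the adaptor through which Trem2 signals, differed by 0.15 (SE 0.16) and 0.27 (SE 0.16). The 7 genes of this group, with Fcer1g, Fcgr3, Cd14, Cd33 and Ly86, ranged over -0.12 to 0.21 at 3 weeks, and over -0.20 to 0.27 at 10 weeks. With 14 libraries they ranged over -0.11 to 0.19 and over -0.17 to 0.18, and Tyrobp was at -0.04 at 10 weeks.

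The transcription factor genes Spi1, which encodes PU.1, and Irf8, both needed for the microglial lineage, differed by 0.04 and -0.11 at 3 weeks and by 0.07 and 0.08 at 10 weeks (SE 0.13 each). A second Irf8 probe set (1416714_at) gave 0.70 at 10 weeks, with overlapping groups. Aif1, which encodes the microglial stain Iba1, differed by -0.29 (SE 0.35) at 3 weeks and -0.34 (SE 0.35) at 10 weeks. Of the leukocyte genes, the pan-leukocyte phosphatase Ptprc (CD45) differed by 0.17 (SE 0.24) and 0.38 (SE 0.24), and a second Ptprc probe set (1422124_a_at) gave -1.11 at 10 weeks, with controls from 3.17 to 7.03. The tetraspanin gene Cd53 differed by 0.20 (SE 0.30) and 0.32 (SE 0.30). Itgam, the CD11b integrin chain, read 4.63, 4.43, 4.32 and 4.44 in Tfr1-null libraries at 3 weeks, against 4.58, 4.61 and 5.14 in controls. Its 12-library difference there was -0.38 (SE 0.21, limma adjusted p = 0.625), and 4 of its 14 values lay under the 25th percentile of their array.

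**Figure D3:**
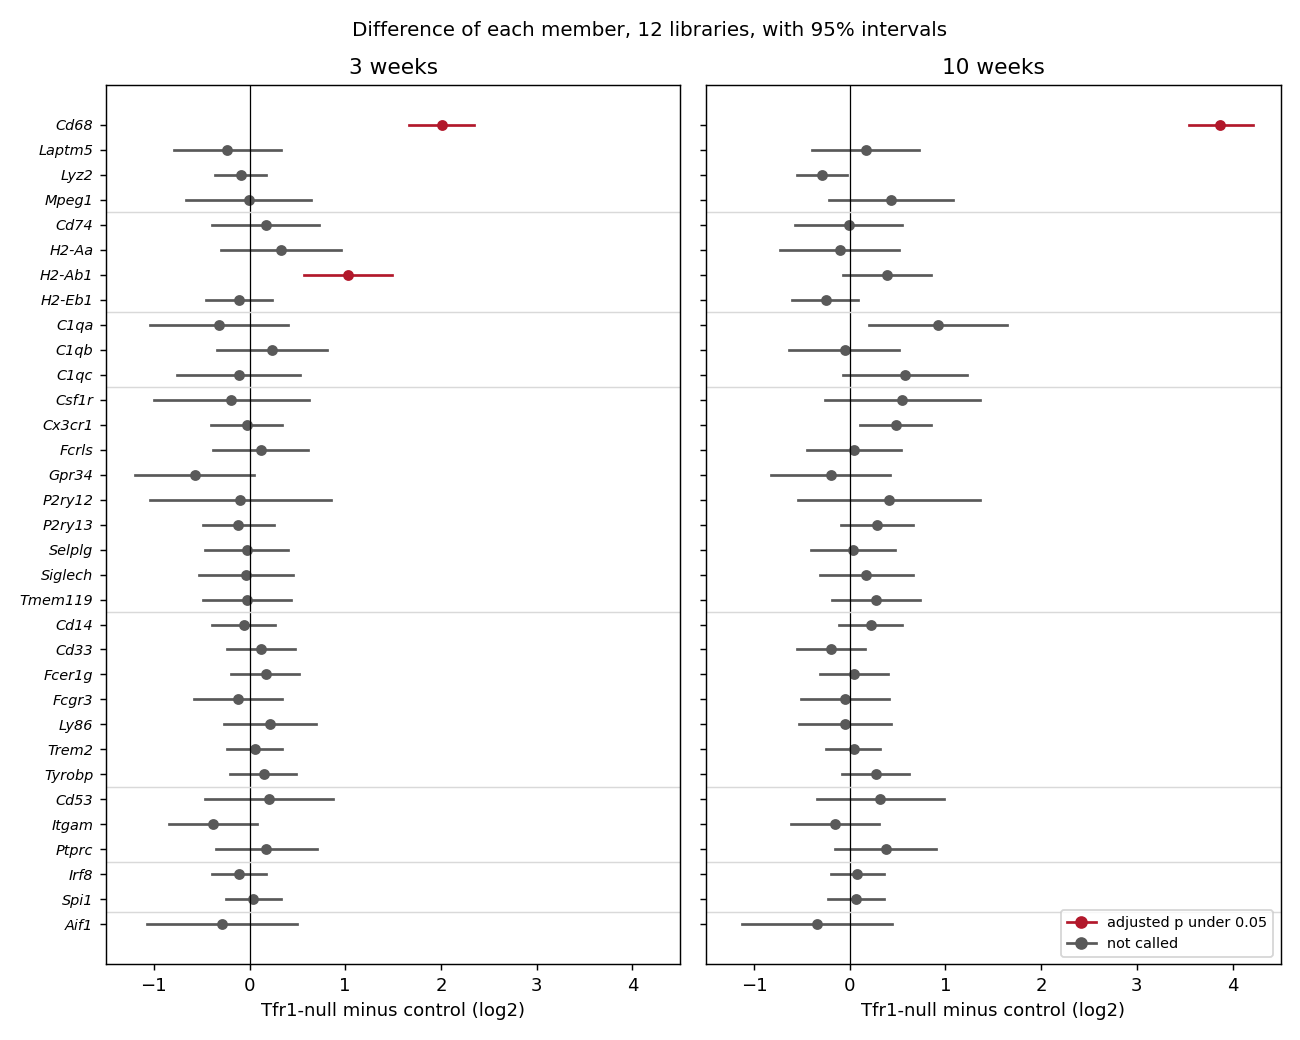
Difference (Tfr1-null minus control, log2) of each of the 33 members at 3 weeks (left) and 10 weeks (right) with 12 libraries; points are estimates, lines are 95% intervals and red marks limma adjusted p under 0.05, with grey lines between groups of like role. The interval of Cd68 lies to the right of the intervals of all 32 other members at both ages.

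Counted over the 33 members, no member was called at either age with 14 libraries, where 0% of all genes were called at 3 weeks and 1.21% at 10 weeks (0.594% higher in Tfr1-null). With 12 libraries 2 members were called at 3 weeks, Cd68 and H2-Ab1, both higher, where 1.84% of all genes were called and 0.682% were called higher. At 10 weeks 1 member was called, Cd68, where 11.1% of all genes were called and 4.73% were called higher. Every Tfr1-null library lay above every control for 2 members at 3 weeks, Cd68 and H2-Ab1, where 13.3% of all genes did, and for 2 members at 10 weeks, Cd68 and C1qa, where 9.87% did. For 1 member, Itgam, every Tfr1-null library lay below every control at 3 weeks, where 2118 of 18193 genes did. At 10 weeks 0 members did, where 2305 genes did. The members' shares were thus near or below those of all genes, apart from 2 of 33 called higher at 3 weeks.

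The 32 members other than Cd68 had a median difference of -0.03 at 3 weeks and 0.07 at 10 weeks with 12 libraries, and the 33 members -0.03 and 0.08, beside 0.01 and -0.01 for all genes. With 14 libraries the medians of the 32 were 0.02 and 0.06. With 12 libraries 13 of the 32 were above 0 at 3 weeks and 30 lay within 0.5 of it. At 10 weeks 21 were above 0 and 29 lay within 0.5. With 14 libraries 16 and 18 were above 0. Over all 14 libraries the mean level of the 32 was 6.34 to 6.55 in Tfr1-null and 6.39 to 6.48 in controls at 3 weeks. At 10 weeks it was 7.43 to 7.68 against 7.27 to 7.77. The genotypes overlapped at both ages, with 14 and with 12 libraries.

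The precision set what could be seen. The median SE of the 32 was 0.21 with 12 libraries. The 95% interval excluded a difference of 1 in log2 signal, in either direction, for 26 of them at each age. Some members, such as Gpr34 and Itgam, lay close to the 25th percentile of the arrays, 4.33 to 4.41 at 3 weeks. Whether such low signals follow transcript amounts to scale was not tested. The interval of Cd68 was 1.67 to 2.35 at 3 weeks and 3.54 to 4.21 at 10 weeks. The highest upper bound among the other 32 was 1.49 at 3 weeks, for H2-Ab1, and 1.64 at 10 weeks, for C1qa. The members also scattered more within groups than genes did in general: at 10 weeks the median SD of the 32 was 0.27 in Tfr1-null libraries and 0.31 in 3 controls, beside 0.18 and 0.19 for all genes. P2ry12 had the highest SD of the 32 in those controls, 1.17.

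**Figure D4:**
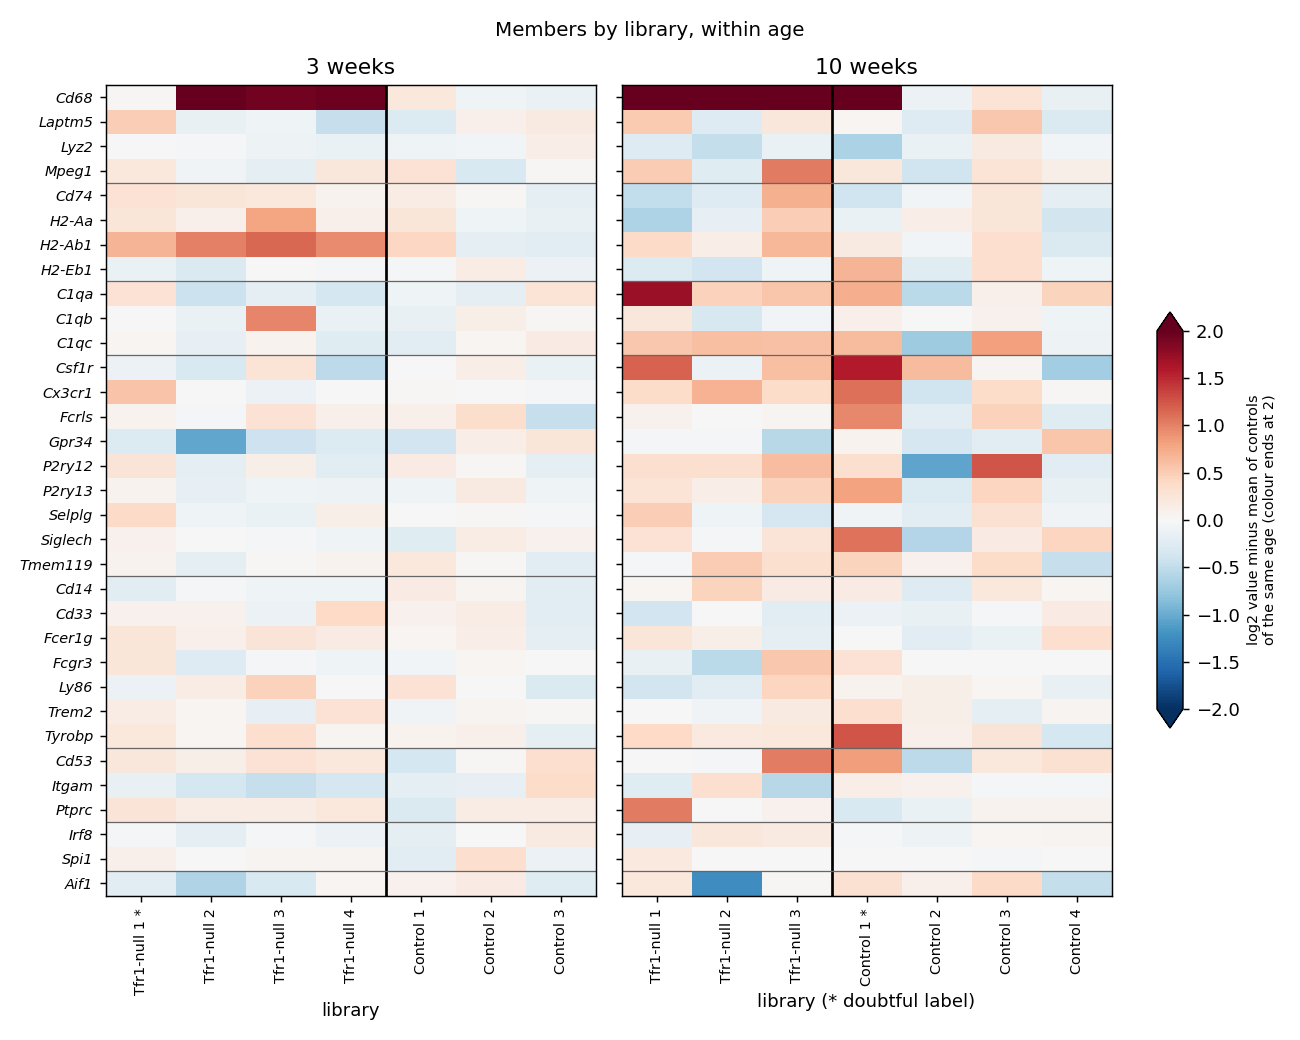
Each member's log2 value in each library minus the mean of the controls of the same age (controls with doubtful labels left out of that mean), with Tfr1-null libraries left of controls; colour ends at a difference of 2. Cd68 is dark red in Tfr1-null libraries 2 to 4 at 3 weeks and in 4 libraries at 10 weeks, including the library labelled control 1. H2-Ab1 is red in the Tfr1-null libraries at 3 weeks and C1qa in Tfr1-null library 1 at 10 weeks, and most other rows are pale or mixed.

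Library 1 of the 10-week controls was the highest of the 7 libraries for 8 of the 32 other members, among them Csf1r, Cx3cr1, Fcrls, P2ry13, Siglech and Tyrobp, and control 2 was the lowest for 10 of them. Tyrobp read 8.93 in the library labelled control 10 weeks 1, against 8.08, 7.87 and 7.89 in Tfr1-null libraries and 7.78, 7.93 and 7.33 in the other controls. At 3 weeks the library labelled Tfr1-null 3 weeks 1 was the highest of the 7 for 8 of the 32.

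**Figure D5:**
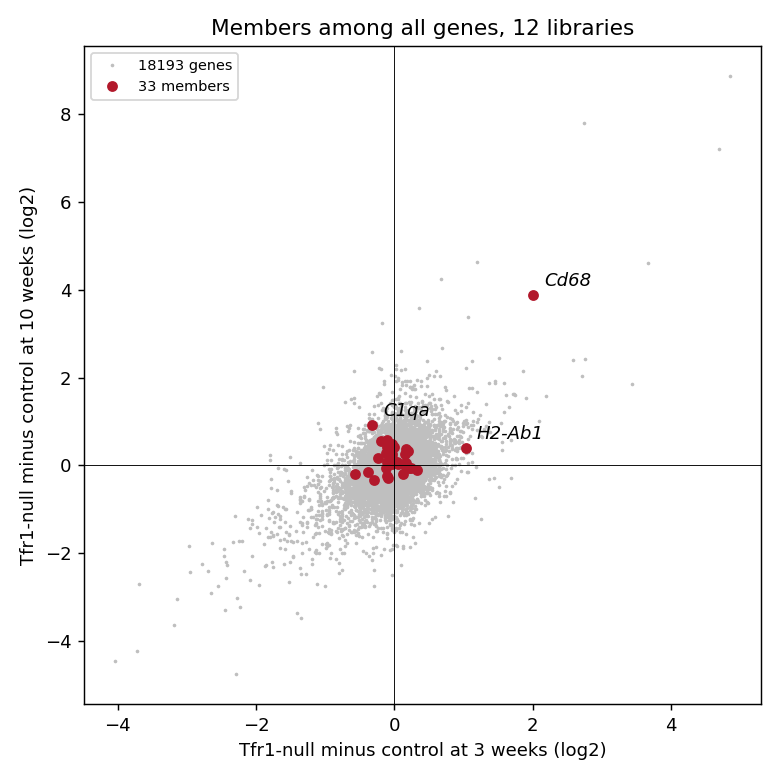
Difference (Tfr1-null minus control, log2) at 3 weeks (horizontal) and at 10 weeks (vertical) with 12 libraries for all 18193 genes (grey) and the 33 members (red). Cd68, at 2.01 and 3.87, stands outside the cloud that holds the other 32 members.

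Other genes of the same processes were read from lists. Each count below stands beside the share of all genes called with 12 libraries. That share was 1.84% at 3 weeks (0.682% higher) and 11.1% at 10 weeks (4.73% higher). Of 14 measured lysosomal genes other than Cd68 1 rose and 1 fell at 10 weeks with 12 libraries, and none was called at 3 weeks. Npc1, which moves cholesterol out of lysosomes, was 0.52 higher in Tfr1-null (SE 0.12, limma adjusted p = 0.0213), and Gusb, the lysosomal beta-glucuronidase, was -1.28 (SE 0.29, limma adjusted p = 0.0192). The median of the list was 0.20 at 10 weeks, beside -0.01 for all genes. Of its 14 genes 9 had an unadjusted limma p under 0.05 at 10 weeks, as did 4801 of all 18193 genes, and 9 were above 0. Of 19 measured genes of the disease-associated microglia signature, which shares Ctsb and Ctsd with the lysosomal list, none rose at either age. The tetraspanin gene Cd9 of that list fell at both, by 1.10 (SE 0.16, limma adjusted p = 0.00381) at 3 weeks and by 0.81 (SE 0.16, limma adjusted p = 0.00917) at 10 weeks.

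Of 14 measured genes of the class II machinery 1 rose, at 3 weeks: H2-DMa, the alpha chain of the peptide-loading protein H2-M, by 0.69 (SE 0.15, limma adjusted p = 0.0464), a call that held in 7 of 21 alternatives. At 10 weeks its difference was 0.43 (SE 0.15, limma adjusted p = 0.095). Rfx5, a factor that binds class II promoters, was not called, at -0.46 and -0.42. Of 12 measured genes of MHC class I presentation none was called at 3 weeks. At 10 weeks the immunoproteasome subunit gene Psmb10 fell by 0.69 (SE 0.13, limma adjusted p = 0.00854), and Pdia3, a chaperone of class I assembly, rose by 0.35 (SE 0.10, limma adjusted p = 0.0451). The call of Pdia3 held in 5 of 21 alternatives, with differences of 0.21 to 0.43, and that of Psmb10 in 20.

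Of 11 measured complement genes beyond C1q 1 rose, at 10 weeks: Itgb2, the beta chain that pairs with Itgam in complement receptor 3, by 0.58 (SE 0.15, limma adjusted p = 0.0346), a call that held in 11 of 21 alternatives. Of 16 measured genes of signals between neurons and microglia 1 fell, at 10 weeks: the cytokine gene Il18, by 1.21 (SE 0.33, limma adjusted p = 0.0409), a call that held in 8 of 21 alternatives. Cx3cl1, the ligand of Cx3cr1 that neurons make, was at -0.43 (SE 0.13, limma adjusted p = 0.0626) at 10 weeks and was not called. Of 13 measured interferon response genes none was called, with the smallest p for Usp18, at -1.92 (SE 0.67, limma adjusted p = 0.0927) at 10 weeks, and Irf7, at -0.25 (SE 0.09, limma adjusted p = 0.29) at 3 weeks. With 14 libraries no gene of any of these lists was called.

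Markers of other cells were read beside Cd68 with 12 libraries, where 1.84% of all genes were called at 3 weeks and 11.1% at 10 weeks. None of the 8 perivascular macrophage, 10 lymphocyte, 6 neutrophil and monocyte, 7 oligodendrocyte and 7 endothelial genes measured was called at either age. By unadjusted p over both ages, the first gene of each list was Mrc1 (-0.81), Cd2 (-0.48), Ngp (0.25) and Esam (-0.38) at 3 weeks and Mobp (0.39) at 10 weeks. The second was Stab1 (-0.17), Nkg7 (-0.21), S100a8 (-0.33), Cldn5 (0.41) and Mog (-0.97), all at 10 weeks. Their limma adjusted p, which is set within each age, lay between 0.192 and 0.597. At 3 weeks 0 of the 7 endothelial genes were above 0, with a median of -0.36. That list averaged 6.01 to 6.11 in Tfr1-null libraries against 6.24 to 6.49 in controls, which did not overlap. With 14 libraries the Tfr1-null values reached 6.67. At 10 weeks the list averaged 6.93 to 7.13 against 6.95 to 7.05. The mean level of the perivascular macrophage list was 5.06 to 5.37 in Tfr1-null libraries and 5.16 to 5.26 in controls at 3 weeks, and 5.83 to 6.12 against 5.84 to 6.15 at 10 weeks. Of 8 astrocyte genes 1, Sox9, rose at 10 weeks, by 1.14 (SE 0.30, limma adjusted p = 0.0327), and that list averaged 10.36 to 10.75 in Tfr1-null libraries against 9.89 to 10.53 in controls. The median of the list was 0.38 and 7 of 8 genes were above 0. The call of Sox9 held in 10 of 21 alternatives, with differences of 0.67 to 1.51, and was lost with 14 libraries (0.93, limma adjusted p = 0.129). Of the 8 dopaminergic neuron genes 1, Ddc, the decarboxylase that makes dopamine, fell at 10 weeks, by 0.32 (SE 0.09, limma adjusted p = 0.0488), a call that held in 3 of 21 alternatives and was lost with 14 libraries (-0.24, limma adjusted p = 0.224). The median of that list was -0.31, beside -0.01 for all genes, and 2 of 8 genes were above 0. Of the 8 genes 6 had an unadjusted limma p under 0.05 at 10 weeks, as did 4801 of all 18193 genes. Pitx3, a transcription factor gene of these neurons, was lowest at -1.86 (SE 0.69, limma adjusted p = 0.111) and was not called. The part of any of these cells in the difference of Cd68 was not tested.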

How the data were processed

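RNA on ribosomes of ventral midbrain dopaminergic neurons was precipitated, 50 ng was amplified with the NuGEN Ovation system and hybridised to Affymetrix arrays, per the labels' protocols. The deposited log2 values were made by the authors with RMA in Partek 6.5, per the submitters' processing notes. The array medians differ by age, as arrays normalized separately would, so levels were not compared between ages. Of 45101 probe sets 34958 had 1 gene symbol in GEO's platform annotation, 932 had several and 9211 had none, and 13 control probe sets were left out. Where several probe sets shared a gene, the brightest on average across the 14 arrays stood for it, which gave 18193 genes. The members had 51 probe sets, and 10 members had several. Of 33 members 30 were never under the 25th percentile of an array, and 3 were in 1 to 4 libraries. Scanner files and probe intensities were not used here, so the number of arrays limits the precision.

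Group means were fitted with limma 3.58.1 in R 4.3.3 (lmFit, eBayes), and p-values were adjusted by Benjamini and Hochberg over all 18193 genes, with a threshold of 0.05. Groups follow the labels, and 14 libraries are the principal fit. The fit was tested on simulated data. The members, the gene lists and the leaving out of 2 libraries were chosen with earlier results of these data known. Cd68, the class II genes and every called member are given in full, and of each list the called genes or, where none was called, those with the smallest p. Cx3cl1 and Pitx3 were added outside that rule, as uncalled genes of lists that held a called one. Of 173 listed genes 150 were measured. Promoter windows came from RefSeq (GRCm38.p6) and were searched in Python 3.11.15 with pandas 2.3.3. The alternatives were libraries left out, other probe set rules and filters, other scalings, array weights and a replicate block.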

Additional observations from a re-analysis of the deposited data

Results flagged for a closer look

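In 66 groups of 4 libraries over the members, 5 values stood far from the other 3 by Dixon's test, and chance gives about 1 in 20 such groups. Cd68 in the library labelled Tfr1-null 3 weeks 1 read 5.49, against 7.39 to 7.61 in the other 3 Tfr1-null libraries. Cd68 in the library labelled control 10 weeks 1 read 9.96, against 6.44 to 6.85 in the other 3 controls. These are the 2 libraries with doubtful labels, and Cd68 was not used to doubt them. C1qb in Tfr1-null 3 weeks 3 read 9.92, against 8.81 to 8.96. Fcgr3, an Fc receptor gene, read 8.24 in the library labelled control 10 weeks 1, against 7.94 to 7.95. Spi1 read 6.79 in control 10 weeks 3, against 6.82 in the other 3, a gap that stands out only because those values are equal to 2 decimals. The difference of Cd68 between genotypes was larger at 10 than at 3 weeks with 12 libraries, by 1.86 on the log2 scale (limma interaction, adjusted p = 0.00765).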

How the results depend on the processing

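With 14 libraries as labelled, the count of members called at 3 weeks was 0 and became 2 with 12 libraries and 2 with array weights, where Cd68 was 1.76 (limma adjusted p = 0.0318) and H2-Ab1 0.95 (limma adjusted p = 0.0142). At 10 weeks the count of 0 became 1 (Cd68) with 12 libraries, where 2015 of all genes were called. It also became 1 when control library 1 alone was left out, where 1924 were. In that fit Cd68 was 3.87 (limma adjusted p = 0.00067). Leaving out 1 library at a time gave counts of 0 to 1 at 10 weeks. The Cd68 differences were then 2.70 to 3.87, and at 3 weeks 1.31 to 2.01. For the difference between ages the count became 1 with 12 libraries, where that of Cd68 was 1.86 and 52 of all genes were called. With 12 libraries Cd68 stayed called under all alternatives at both ages, between 1.93 and 2.13 at 3 weeks (highest limma adjusted p = 0.00266) and between 3.76 and 4.01 at 10 weeks (highest limma adjusted p = 0.00089). The count at 3 weeks was 1, without H2-Ab1, with the mean of the probe sets, where 373 of all genes were called. It was 1 to 2 when a library was left out, where 205 to 412 were. The count at 10 weeks was 1 to 5 when a library was left out, where 1425 to 2128 of all genes were called. The 5 came without control library 3, where 1623 were. Replicate numbers did not pair the libraries (correlations of same-numbered libraries -0.08 to 0.09); with the replicate block and 12 libraries the difference of Cd68 between ages was 1.63 (limma adjusted p = 0.191), so the count there was 0, and the calls of Cd68 at each age stayed. Among list genes, Cd9 stayed called in 21 of 21 alternatives at 3 weeks and 20 of 21 at 10 weeks and Gusb in 18 and Npc1 in 16 of 21 at 10 weeks. No result changed sign while called. Groups of 3 or 4 libraries, 1 probe set for Cd68 and the choice of libraries by Tfrc limit these values, and the causes of the changes were not tested.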
